A study of Mus musculus with 4 samples.

Results

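Cd24a, Lgals3, Krt8, Krt18, Krt19, T and Car3 are 7 of the 32286 genes listed in single-cell RNA-sequencing (scRNA-seq) data from the mouse vertebral column, and were taken by symbol as genes used to mark cells of the intervertebral disc and of the notochord. The notochord is the embryonic midline rod around which the vertebral column forms, and its cells give rise to the nucleus pulposus, the gel-like core of the disc. T (brachyury) is the T-box transcription factor that defines notochordal cells. Krt8, Krt18 and Krt19 are the keratins of simple epithelia, form intermediate filaments and are kept by notochordal and nucleus pulposus cells. Cd24a, a small surface glycoprotein held by a lipid anchor, and Lgals3 (galectin-3), a galactose-binding lectin, are used as disc cell markers, and Car3 is a cytosolic carbonic anhydrase known from muscle, fat and nucleus pulposus. The data were asked whether the 7 genes were detected together in the same cartilage cells, whether any cell carried T with a keratin, and how the levels compared with those in bone and stromal cells. They did not mark 1 set of cells. Cd24a and Lgals3 were found in most chondrocytes of all 4 libraries, Car3 lay mainly in cells with high Col1a1, and T with the keratins came down to a single cell that held all 7 genes.

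The study followed tdTom+ cells of the Prss56 lineage in the spine of Prss56-Nf1 mice, a model of the spine deformity of neurofibromatosis type 1. Control mice were Prss56Cre/+;R26tdTom/tdTom;Nf1+/+ and mutant mice Prss56Cre/Cre;R26tdTom/tdTom;Nf1fl/fl, studied at an age of 3 months or of 12–16 months, and each of the 4 groups gave 1 library. All groups carry Cre at the Prss56 locus, which marks boundary cap cells of the nerve roots and their descendants, and the R26tdTom reporter. Controls have 1 Cre allele and mutants have 2, so a difference between them cannot be told apart from one of Cre dose. Thoracic and lumbar vertebrae with visible tdTom signal were freed of muscle, spinal cord and ganglia, digested, and sorted for tdTom+ cells, with cells stained for CD11b, CD31 or CD45 and dead cells discarded. How many mice went into a library was not given in the sources used here. With 1 library per condition there is no replicate and no test, and all intervals are 95% intervals that cover counting error only.

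Of 2172 deposited barcodes, 1757 passed the filter (UMIs above 750, genes above 500 and a mitochondrial share under 7%), with 717 in the 3-month control library, 484 in the 3-month mutant, 135 in the 12–16-month control and 421 in the 12–16-month mutant, the order kept for all lists of 4 values. The passing cells held 9429264, 7287981, 2154537 and 4398951 UMIs (unique molecular identifiers, each counting 1 captured RNA molecule), with a median of 11467, 12644, 11702 and 8189 per cell, and no barcode was shared between libraries. Chondrocytes were the cells with at least 1 Sox9 and at least 3 Acan UMIs (the cartilage transcription factor and the cartilage proteoglycan), and numbered 562, 377, 89 and 258, 1286 in all. Bone/stroma cells had at most 2 Acan UMIs and at least 1 UMI of Runx2, the osteoblast transcription factor, and numbered 45, 39, 27 and 83, 194 in all. All 6 genes of a chondrocyte list, which includes both genes of the rule, were found in at least 10% of the chondrocytes, at a summed 14169.7 to 17366 CPM (UMIs of a gene per 1000000 UMIs of the class) over the libraries, against 173 to 1012 in bone/stroma cells. An 8-gene immune list summed to at most 10.5 CPM in chondrocytes but to between 7.6 and 5840.2 in bone/stroma cells, where 1, 23, 2 and 7 cells held Ptprc, the gene of CD45, despite the sort. None of the chondrocytes held Ptprc. Nf1 itself stood at 131, 149.7, 147 and 125 CPM over the passing cells. A count at the 3′ end of the transcript need not show a floxed deletion, so these values check nothing, and the libraries are named as labelled.

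Promoters were held by the RefSeq table (GRCm38.p6, from 250 bases before to 50 bases after the start) for 4 of the 7 genes and are shown because Krt8, Krt18 and T were found together in 1 cell, while Lgals3 was found in nearly every chondrocyte. Capitals mark 3 short motifs searched on both strands. They are a T-box core AGGTGT (in 13.7% of 32851 promoters of this length), a TATA box TATAAA (in 13.6%) and a GC box GGGCGG (in 35.7%). The windows are T chr17:8434173-8434472 (plus strand), Krt8 chr15:102004293-102004592 (minus strand), Krt18 chr15:102027966-102028265 (plus strand) and Lgals3 chr14:47373610-47373909 (plus strand), each printed 5′ to 3′ on the strand of its gene. The RefSeq starts of Lgals3, Krt8 and Krt18 lie inside the spans that the gene annotation gives.
T: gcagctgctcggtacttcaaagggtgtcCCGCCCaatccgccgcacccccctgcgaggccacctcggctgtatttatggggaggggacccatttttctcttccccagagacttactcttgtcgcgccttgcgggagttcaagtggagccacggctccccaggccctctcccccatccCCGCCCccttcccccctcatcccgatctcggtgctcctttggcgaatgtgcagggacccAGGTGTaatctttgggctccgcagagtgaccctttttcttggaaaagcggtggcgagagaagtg
Krt8: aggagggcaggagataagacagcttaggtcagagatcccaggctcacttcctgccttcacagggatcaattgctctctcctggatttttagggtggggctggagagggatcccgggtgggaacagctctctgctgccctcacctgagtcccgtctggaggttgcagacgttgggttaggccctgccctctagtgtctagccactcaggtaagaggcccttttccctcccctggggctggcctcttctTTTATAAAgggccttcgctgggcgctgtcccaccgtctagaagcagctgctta
Krt18: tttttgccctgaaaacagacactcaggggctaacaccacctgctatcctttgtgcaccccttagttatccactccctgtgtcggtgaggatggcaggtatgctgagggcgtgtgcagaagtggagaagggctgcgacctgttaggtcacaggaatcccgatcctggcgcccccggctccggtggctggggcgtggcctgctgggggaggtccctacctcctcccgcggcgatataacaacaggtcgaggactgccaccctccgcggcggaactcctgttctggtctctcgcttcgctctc
Lgals3: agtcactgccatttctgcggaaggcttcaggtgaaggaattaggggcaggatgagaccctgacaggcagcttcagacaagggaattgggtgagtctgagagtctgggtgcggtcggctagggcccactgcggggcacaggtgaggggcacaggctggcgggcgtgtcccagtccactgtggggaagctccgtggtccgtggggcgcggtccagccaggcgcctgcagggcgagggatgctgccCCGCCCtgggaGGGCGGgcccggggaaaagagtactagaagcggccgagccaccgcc
The T window held 1 T-box core at bases 237 to 242 and 2 GC boxes, both read on the other strand. In the Krt8 window TATAAA was read on both strands, at bases 250 to 255 and at 248 to 253, so these matches overlap. The Lgals3 window held 2 GC boxes, and the Krt18 window none of the 3 motifs. G and C made up 61.7%, 58%, 61.3% and 67% of the bases in the T, Krt8, Krt18 and Lgals3 windows. A match is a description of letters and not a binding site.

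Cd24a (chr10:43578284-43584265, plus strand, GRCm38) was detected in most chondrocytes of every library. It was found in 512 of 562, 285 of 377, 78 of 89 and 197 of 258 chondrocytes, which is 91.1% (exact Clopper-Pearson interval 88.4–93.3), 75.6% (70.9–79.8), 87.6% (79–93.7) and 76.4% (70.7–81.4). The median chondrocyte held 5, 2, 4 and 2 Cd24a UMIs and the highest 48, 42, 29 and 74. Summed over the class, its level was 481, 255, 344 and 319.6 CPM, from 3975, 1491, 450 and 915 UMIs. The 3-month control library was highest by share and by level, and the 3-month mutant library was lowest. The intervals of the levels of both 12–16-month libraries, 313–377 and 299–341, overlapped. After thinning each cell to 3000 UMIs, which left out 9, 1, 8 and 15 shallower cells, the expected shares were 67.9%, 44.7%, 60.9% and 53%, and put the libraries in the same order as the levels.

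Lgals3 (chr14:47367751-47386160, plus strand, GRCm38) was found in nearly all chondrocytes, in 559 of 562, 353 of 377, 87 of 89 and 250 of 258. These are 99.5% (98.4–99.9), 93.6% (90.7–95.9), 97.8% (92.1–99.7) and 96.9% (94–98.7). The median chondrocyte held 20, 9, 13 and 10 Lgals3 UMIs and the highest 103, 66, 73 and 187. Its level over the class was 1552, 762, 1086 and 1137 CPM. As for Cd24a, the 3-month control library was highest and the 3-month mutant library lowest, and the intervals of both 12–16-month libraries, 1029.8–1143 and 1098–1177, overlapped. At 3000 UMIs per cell, with the same cells left out, the expected shares were 94.9%, 75.8%, 88.1% and 87.4%.

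**Figure D1:**
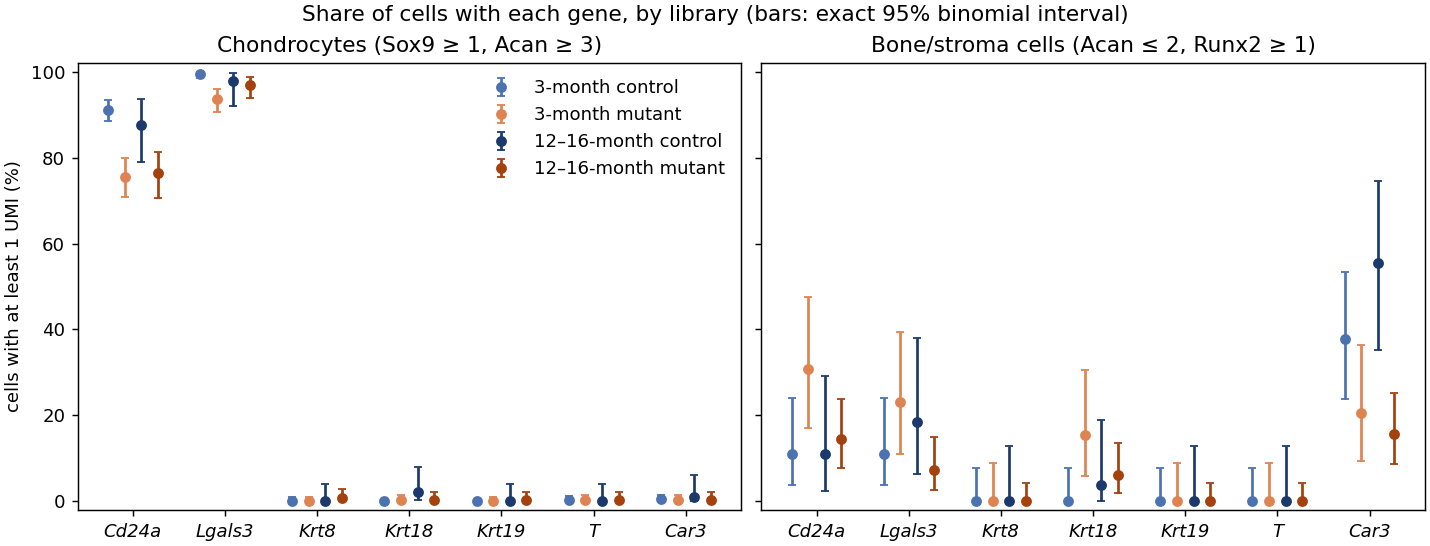
Share of cells with at least 1 UMI (percent, y axis) of each of the 7 genes (x axis) in chondrocytes (left) and bone/stroma cells (right), with a point for each library and bars for the exact 95% binomial interval. Cd24a (75.6% to 91.1%) and Lgals3 (93.6% to 99.5%) stand high in chondrocytes, Car3 is the most often detected of the 7 in the bone/stroma cells of both control libraries, and T and the keratins lie near 0 apart from Krt18 in bone/stroma cells.

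In bone/stroma cells both genes were scarce, and most of their UMIs lay in cells with Ptprc, 94 of 109 for Cd24a and 115 of 147 for Lgals3. Cd24a was found in 5 of 45, 12 of 39, 3 of 27 and 12 of 83 bone/stroma cells, at 6.33, 63.8, 9.6 and 43.3 CPM. Lgals3 was found in 5, 9, 5 and 6 of these cells, at 22.8, 107, 15.1 and 26.8 CPM. Over the 4 libraries Cd24a was in 21 of 33 bone/stroma cells with Ptprc and in 11 of 161 without, and Lgals3 in 12 of 33 and in 13 of 161. The median depth was 14823 UMIs in the 33 cells and 11283 in the 161. In cells that were neither chondrocytes nor bone/stroma, Lgals3 was in 2 of 47 cells with Acta2 of at least 10 UMIs, a smooth muscle actin, in 0 of 37 cells with Cd79a, a B cell gene, and in 0 of 19 with Cdh5, an endothelial gene. It was in 16 of 23 cells with S100a8, a neutrophil gene, at 1233 CPM, and in 5 of 21 with Hba-a1, a red cell gene, at 441 CPM. Cd24a, which B cells and red cell precursors also express, was in 24 of the 37 cells with Cd79a, at 681 CPM. It was in 13 of the 21 with Hba-a1, at 1729 CPM.

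The chondrocyte level of Cd24a was 76 times that of bone/stroma cells in the 3-month control library (exact conditional binomial interval 32.5–234), 4.0 times in the 3-month mutant (3.05–5.33), 35.8 times in the 12–16-month control (17.2–89.6) and 7.37 times in the 12–16-month mutant (5.41–10.3). For Lgals3 the ratios were 68.1 (43–115), 7.14 (5.81–8.87), 71.9 (40.1–144) and 42.4 (28.9–65). Both genes were higher in chondrocytes than in bone/stroma cells in 4 of 4 libraries, with a lower ratio in each mutant library than in the control of its age. In the other passing cells Cd24a stood at 332, 342, 767 and 239.7 CPM, above the chondrocyte level in the 3-month mutant and the 12–16-month control library, and Lgals3 at 860.0, 580.0, 563 and 261 CPM. In the 12–16-month control library 1 of the 19 other passing cells held 72 of their 90 Cd24a UMIs. In the 3-month mutant 1 of 68 held 48 of 199. Without cells with Ptprc the Cd24a ratio was 75.7 in the 3-month control library. In the 3-month mutant, where 0 UMIs remained in 16 bone/stroma cells and 3 counts stand for 0, it was 16.1 (interval from 13). In the 12–16-month libraries it was then 110.0 (30.3–911, from 2 bone/stroma UMIs) and 35.6 (18–82.7). The Lgals3 ratios without these cells were 67.8, 48 (with 3 counts for 0, interval from 39), 116 and 127. Leaving these cells out thus raised the ratios of both genes in the 12–16-month control as well as in both mutant libraries. The Cd24a ratio of the 12–16-month mutant stayed below that of its control, with overlapping intervals, and its Lgals3 ratio did not. Among all genes with at least 20 UMIs over both classes (12473, 12549, 9517 and 11326 genes), 22.2%, 21.1%, 20.0% and 14.4% were at least 2-fold higher in chondrocytes. Of the 7 genes, 3 reached that minimum in each of the first 3 libraries, of which Cd24a and Lgals3 were at least 2-fold higher in chondrocytes and Car3 was at least 2-fold lower. The share of all tested genes at least 2-fold lower in chondrocytes was 14.9%, 24.4%, 13.2% and 18.2%. In the 12–16-month mutant library 6 reached it, and Krt8 and Krt19 joined the higher ones through a single cell described with the keratins. Krt18 fell with Car3 among the lower ones, at a ratio of 0.489 (0.193–1.30). All 13 of its chondrocyte UMIs came from that same cell. Without cells with Ptprc the Krt18 ratio was 4.04 (0.607–172), with 1 bone/stroma UMI left. Its direction thus changed with these cells, and both intervals include 1.

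Within the chondrocytes, Cd24a and Lgals3 were lower in the cells that also held Runx2. Runx2 was found in 94 of 562, 193 of 377, 24 of 89 and 82 of 258 chondrocytes (16.7%, 51.2%, 27% and 31.8%), and is known to rise as chondrocytes mature toward hypertrophy. Cd24a stood at 549, 484, 453 and 461 CPM in chondrocytes without Runx2 and at 247, 127, 219 and 176 CPM in those with it, ratios of 2.22, 3.82, 2.07 and 2.61. Lgals3 stood at 1738, 1292, 1386 and 1655 CPM without Runx2 and at 909.8, 465, 743 and 613 CPM with it, ratios of 1.91, 2.78, 1.86 and 2.7. The direction was the same in all 4 libraries for both genes, and the lowest bound of the 8 intervals was 1.67. Chondrocytes with Runx2 were also deeper, with a median of 17649, 17832, 25178 and 15820.5 UMIs against 11984, 10296, 9666 and 7092. The part of depth in the ratios was not tested.

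**Figure D2:**
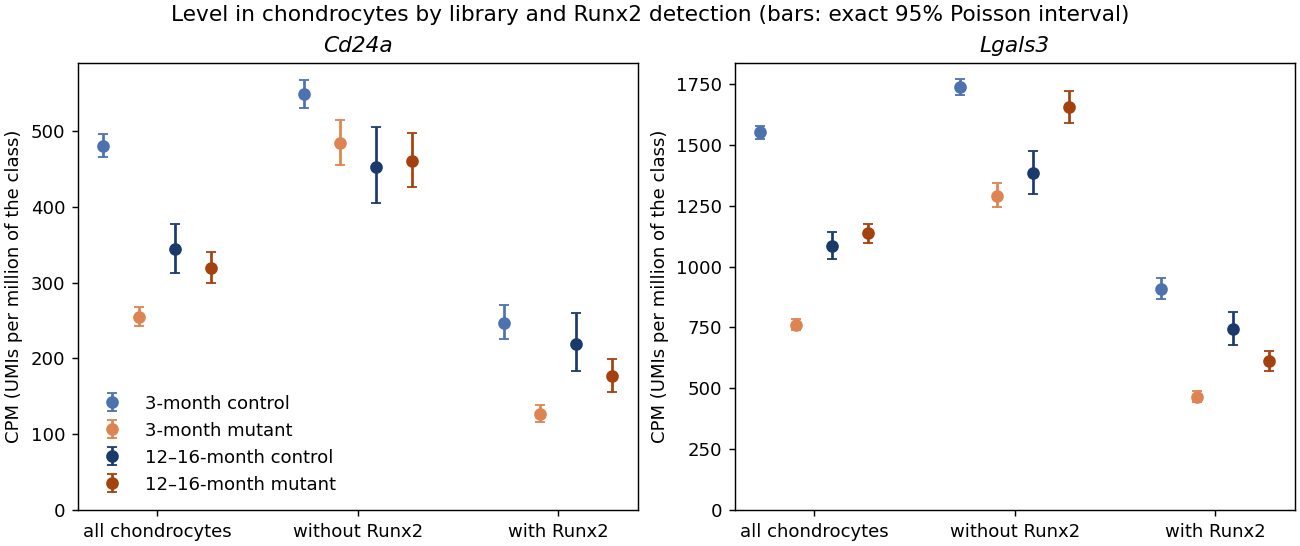
Level of Cd24a (left) and Lgals3 (right) in CPM (y axis) over all chondrocytes, chondrocytes without Runx2 and chondrocytes with Runx2 (x axis), with a point for each library and bars for the exact 95% Poisson interval. In each library both genes are lower in the cells with Runx2, and the 3-month mutant library (orange) lies closer to the others among the cells without Runx2 than over all chondrocytes.

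A split by other cartilage genes was chosen after the values were seen. Prg4 (lubricin) is the lubricant of superficial cartilage cells, and 370, 140, 50 and 164 chondrocytes held at least 10 of its UMIs. In these, Cd24a stood at 522, 484, 404 and 419 CPM, and Lgals3 at 1683, 1313, 1440.3 and 1500.2. In the 88, 151, 18 and 48 chondrocytes with neither Prg4 nor Col10a1, the collagen of hypertrophic chondrocytes, Cd24a was at 340.4, 132, 267 and 222 CPM and Lgals3 at 1122, 447, 473 and 859.9. Both genes were thus higher in the cells with Prg4 than in those with neither gene in each library. The range over the libraries was narrower in the cells with Prg4. Cells with at least 1 Col10a1 UMI (106, 42, 15 and 66) held Cd24a at 521, 293, 503 and 335 CPM and Lgals3 at 1521, 684, 1523 and 1118. Of these cells 16%, 61.9%, 13.3% and 36.4% held Runx2. A cell that met both limits was counted in the set with Col10a1 and in the set with Prg4, so these sets overlap. In the 12–16-month control library both genes were higher in the 15 cells with Col10a1 than in those with Prg4, with overlapping intervals. These were 409–611 and 358–453 CPM for Cd24a and 1357–1703 and 1353–1531 for Lgals3. In both mutant libraries both genes were lower in the cells with Col10a1. Runx2 was found in 7.14% to 16% of the cells with Prg4 and in 46.6% to 84.8% of those with neither gene.

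Between the libraries, the level in chondrocytes was lower in the 3-month mutant than in the 3-month control library for both genes, with a mutant to control ratio of 0.53 (95% interval 0.499–0.563) for Cd24a and 0.491 (95% interval 0.474–0.508) for Lgals3. At 12–16 months the ratios were 0.929 (95% interval 0.829–1.04) and 1.05 (95% interval 0.984–1.12), and both intervals included 1. The chondrocytes with and without Runx2 made up different parts of these libraries, and the ratios shifted within them. At 3 months the Cd24a ratio was 0.882 (95% interval 0.822–0.946) in chondrocytes without Runx2 and 0.513 (95% interval 0.45–0.584) in those with it, and the Lgals3 ratio 0.744 (95% interval 0.713–0.776) and 0.511 (95% interval 0.477–0.546). Within the cells without Runx2 the 3-month ratios were therefore nearer to 1 than over all chondrocytes. At 12–16 months the Cd24a ratio was 1.02 (95% interval 0.889–1.17) without Runx2 and 0.804 (95% interval 0.65–1.0) with it, and the Lgals3 ratio 1.19 (95% interval 1.11–1.29) and 0.825 (95% interval 0.735–0.926). Against the 3-month library of the same genotype, the 12–16-month control library had a ratio of 0.715 (95% interval 0.647–0.788) for Cd24a and 0.70 (95% interval 0.662–0.739) for Lgals3, and the 12–16-month mutant library 1.25 (95% interval 1.15–1.36) and 1.49 (95% interval 1.43–1.56). The 4 comparisons share libraries. Of all genes with at least 20 UMIs, 17.6% differed by at least 2-fold in either direction between mutant and control chondrocytes at 3 months, 8.15% at 12–16 months, 12.6% between the ages in control and 11.5% in mutant, and the median log2 ratio over all these genes lay between -0.03 and 0.11. Of Cd24a and Lgals3, only Lgals3 in the 3-month comparison passed 2-fold, but both values lie close to this limit, since Cd24a also passed it with TMM factors in place of total UMIs (log2 ratio -1.01) and Lgals3 did not with every cell weighted equally (-0.91). Krt8, Krt19 and Car3 passed it at 12–16 months, and with T also between the ages in mutant, in each case through 1 cell.

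Cd24a and Lgals3 were detected in the same chondrocytes. Both were found in 512 of 562 cells of the 3-month control library (91.1%, 88.4–93.3), 277 of 377 of the 3-month mutant (73.5%, 68.7–77.9), 77 of 89 of the 12–16-month control (86.5%, 77.6–92.8) and 193 of 258 of the 12–16-month mutant (74.8%, 69–80). Cd24a without Lgals3 was seen in 0, 8, 1 and 4 cells, Lgals3 without Cd24a in 47, 76, 10 and 57, and neither in 3, 16, 1 and 4. Nearly every chondrocyte with Cd24a thus also held Lgals3, while the reverse was less complete. With Lgals3 in 93.6% to 99.5% of all chondrocytes, the single shares alone would give much of this. In the 3-month mutant library Lgals3 was in 97.2% of the chondrocytes with Cd24a (94.5–98.8) and in 82.6% of those without (73.3–89.7), at median depths of 13356 and 14039 UMIs. After thinning to 3000 UMIs the expected joint shares were 65.6%, 38%, 54.4% and 48.6%, beside products of the single shares of 64.4%, 33.9%, 53.7% and 46.3%. The joint share lay above the product in 4 of 4 libraries. Both genes were lower in cells with Runx2, and the part of this in the joint share was not tested. Of all 1286 chondrocytes, 23 held none of the 7 genes, 203 held 1, 1048 held 2, 11 held 3, none held 4 to 6, and 1 held all 7. Among the 194 bone/stroma cells 11 held both Cd24a and Lgals3, and no cell held more than 3 of the 7 genes.

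**Figure D3:**
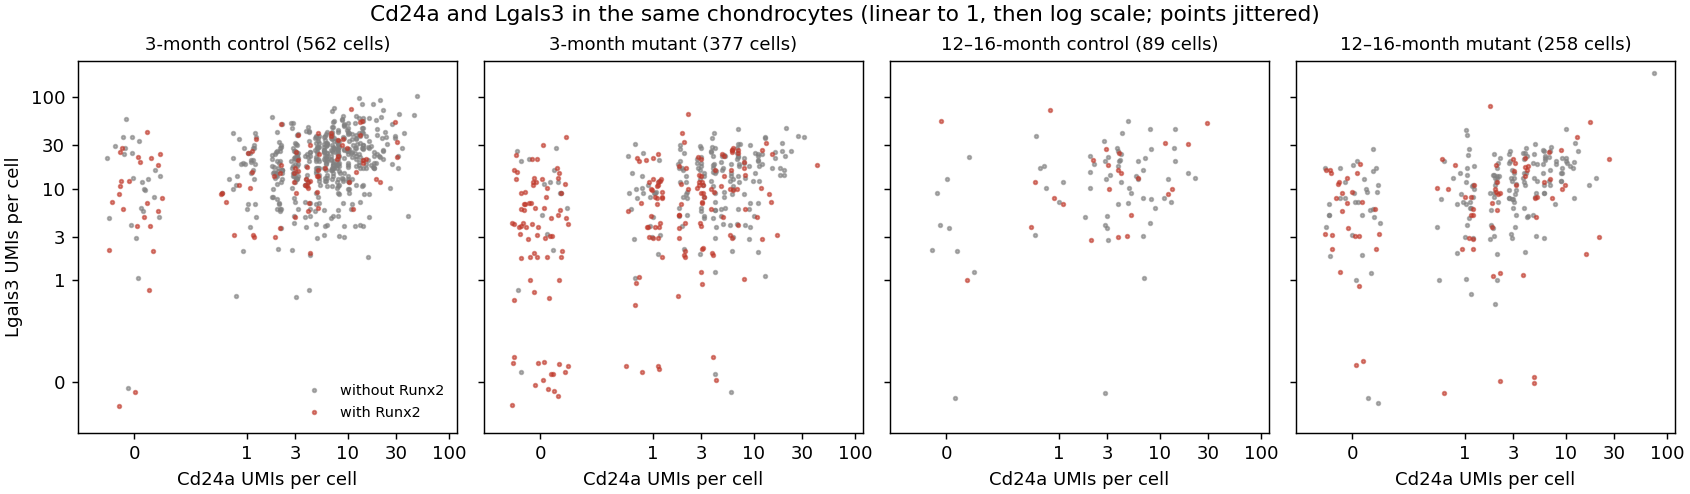
Lgals3 UMIs (y axis) against Cd24a UMIs (x axis) in each chondrocyte, 1 panel per library, linear from 0 to 1 and logarithmic above, with points jittered and cells with Runx2 in red. Most cells lie away from both zero lines, the 3-month mutant library has the most cells at 0 for both genes (16), and the single point at the upper right of the 12–16-month mutant panel is the cell with 74 Cd24a and 187 Lgals3 UMIs.

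T and the keratins were close to absent from the data. T (chr17:8434423-8442496, plus strand) was found in 2, 1, 0 and 1 chondrocytes, with 2, 1, 0 and 19 UMIs. Krt8 (chr15:101996698-102004482, minus strand) was found in 1, 0, 0 and 2 chondrocytes with 2, 0, 0 and 38 UMIs, and Krt18 (chr15:102028180-102032027, plus strand), its filament partner and neighbor at a distance of 23697 bases, in 0, 1, 2 and 1 with 0, 1, 2 and 13 UMIs. Krt19 (chr11:100140810-100148665, minus strand) was found in a single chondrocyte of the 12–16-month mutant library, with 20 UMIs. Of the 1286 chondrocytes, 6 held a keratin of the 3 and 4 held T, and 1 cell was in both counts. For the count of 0 cells with T and a keratin, the exact interval reached 0.654% of the chondrocytes in the 3-month control library. It reached 0.974% in the 3-month mutant and 4.06% in the 12–16-month control. These are limits on cells with a UMI. No bone/stroma cell held T, Krt8 or Krt19. Krt18 was different, since it was found in 0 of 45, 6 of 39, 1 of 27 and 5 of 83 bone/stroma cells, with 1 to 4 UMIs each, of which 11 of 33 cells with Ptprc and 1 of 161 without. It was also in 5 of the 277 cells of neither class. The 415 barcodes that failed the filter held none of T and the 3 keratins.

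The notochordal pattern, T with a keratin, was found in 1 of the 1757 passing cells (0.0569%, 0.00144–0.317), a chondrocyte of the 12–16-month mutant library. This cell had 16738 UMIs, 4100 genes and 2.06% mitochondrial UMIs. It held all 7 genes, with 74 Cd24a, 187 Lgals3, 37 Krt8, 13 Krt18, 20 Krt19, 19 T and 229 Car3 UMIs, 579 in sum. The other 257 chondrocytes of the library held at most 27 Cd24a and 81 Lgals3 UMIs, a single Krt8 UMI, and no Krt18, Krt19, T or Car3. Its Cd24a level was 15 times that of the others (11.6–19) and its Lgals3 level 10.4 times (8.89–12). With 3 counts standing for 0 in the others, the ratio was 1077 for T, 737 for Krt18, 1134 for Krt19 and 12979 for Car3. The lower ends of the exact intervals were 793, 518, 839 and 10470. Its Cd24a and Lgals3 counts were also the highest of any chondrocyte in the series, and it alone held 92.5% of the Krt8, 81.2% of the Krt18, 100% of the Krt19, 86.4% of the T and 97% of the Car3 UMIs of all 1286 chondrocytes. The other 3 cells with T had 1 T UMI each and no keratin.

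**Figure D4:**
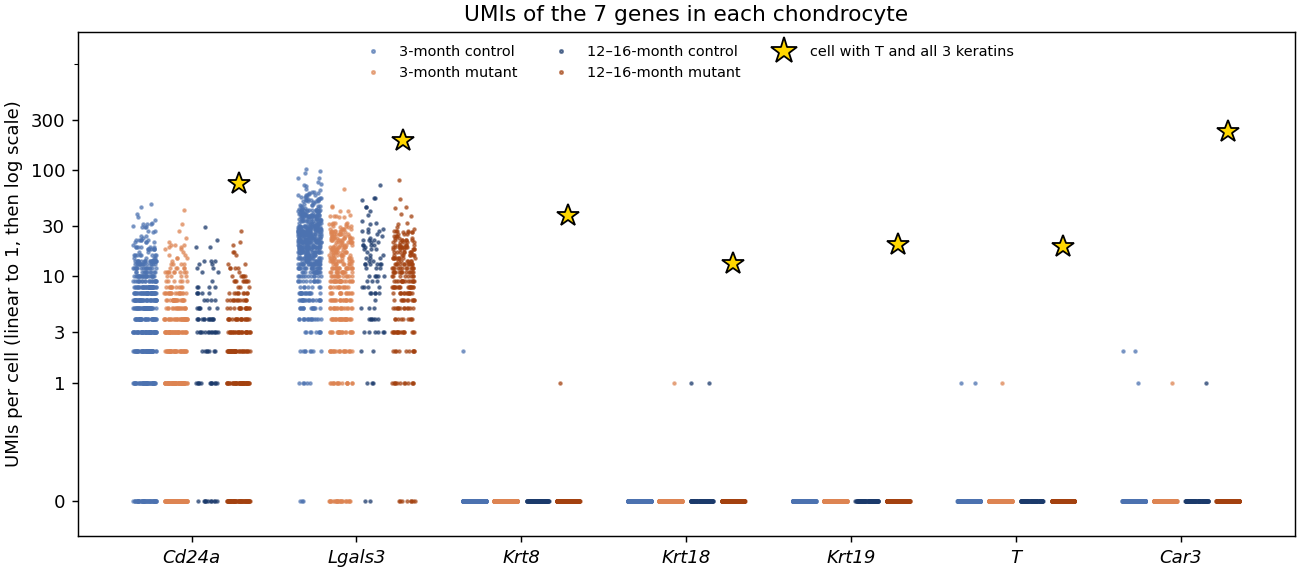
UMIs of each of the 7 genes per chondrocyte (y axis, linear from 0 to 1 and logarithmic above), with a point for each of the 1286 cells colored by library and a star for the cell with T and all 3 keratins. Cd24a and Lgals3 spread over all libraries, while for Krt8, Krt18, Krt19, T and Car3 every other chondrocyte lies at 0, 1 or 2 UMIs below the star.

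The cell was a chondrocyte by the rule, with 129 Acan and 8 Sox9 UMIs and none of Runx2, but it lacked other cartilage genes of the list. It held 0 UMIs of Col2a1, Col9a1, Comp and Matn3, and 0 of Prg4. Of the genes known from notochord and nucleus pulposus, it held 5 Cdh2 UMIs (N-cadherin, against 1 UMI in the other 257 chondrocytes together), 10 Ptn (pleiotrophin, 19 in the others) and 4 Slc2a1 (a glucose transporter, 308 in the others). Of an epithelial list, it held 6 UMIs of the desmosome gene Dsp (12 in the others). It held 0 UMIs of the notochord genes Noto, Shh, Foxa1, Foxa2, Chrd and Foxj1, and of the other 7 genes of the nucleus pulposus list (Car12, Pax1, Hif1a, Foxf1, Tnfaip6, Basp1 and Aqp1). The same held for the epithelial adhesion genes Epcam and Cdh1 and for Krt5, Krt7, Krt14, Krt15 and Cldn4 of the epithelial list. In this cell a count of 0 leaves room for a level of up to 220 CPM. Foxa2 and Chrd stood below this in the other chondrocytes, at 22.8 and 12.6 CPM, so their 0 does not show absence. Pax1 and Hif1a stood above it, at 243 and 340 CPM. Acta2 and Myh11, genes of contractile cells, had 7 and 5 UMIs, against 5 and 2 in the others. Rgs5, on the same list, had 0. Of the immune list Csf1r had 2 UMIs and Cd68 had 1, against 1 and 7 in the others. Ptprc, Lyz2, Itgam, S100a8, Cd79a and Igkc had 0. The reporter tdTomato was also at 0, as it was in most cells, with 164 UMIs over all passing cells. Scrublet did not call the cell a doublet (score 0.0874, against a median of 0.0505 and a highest score of 0.324 in the other chondrocytes). Among genes with at least 10 UMIs in the cell, those that led it over the other chondrocytes, named after the values were seen, were Car3, Krt8, Gpc3 (glypican-3, 20 UMIs), Gm11100 (10), Chrm2 (a muscarinic receptor, 29), Tafa1 (26), Krt19, T, Gnai1 (11) and Hopx (16). Chrm2 and Tafa1 had no UMI in the other 257 chondrocytes, and Gpc3 had 1. The values are those of 1 cell and say nothing of how such cells vary.

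Car3 (chr3:14863512-14872523, plus strand) was found mainly in bone/stroma cells. It was found in 17 of 45, 8 of 39, 15 of 27 and 13 of 83 bone/stroma cells, with 395, 25, 737 and 311 UMIs, or 500.4, 29, 1011 and 321 CPM. In chondrocytes it was found in 3, 1, 1 and 1 cells with 5, 1, 1 and 229 UMIs, the 229 being those of the cell with T and the keratins. The bone/stroma level was 827 (351–2560), 169.5 (27.8–6960), 1322 (237–52300) and 4.01 (3.37–4.78) times the chondrocyte level. With 5, 1 and 1 chondrocyte UMIs, the size of the first 3 ratios is poorly set. Without that 1 cell the 12–16-month mutant chondrocytes held 0 Car3 UMIs, and with 3 counts for 0 the ratio was 304 (interval from 246). The carbonic anhydrase was concentrated in few cells, since 141 of the 194 bone/stroma cells held none, 30 held 1 to 9 UMIs and 23 held at least 10. These 23 cells held a median of 4196 UMIs of Col1a1, the chain of type I collagen that osteoblasts secrete, against 2 in the 141 cells, and from 43 to 24720. Their median count of Bglap (osteocalcin) was 385 against 0, and of Cxcl12, a stromal cell chemokine, 0 against 11. None of the 23 held Ptprc. The median depth was 34676 UMIs in the 23 cells and 9550 in the 141, and its part in these counts was not tested.

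Most Car3 UMIs of the bone/stroma cells lay in cells rich in Col1a1, whose number differed between the libraries. Over the bone/stroma cells the mutant to control ratio was 0.058 (0.0371–0.0868) at 3 months and 0.317 (0.277–0.363) at 12–16 months, and the 12–16-month to 3-month ratio was 2.02 (1.79–2.29) in control and 11.1 (7.36–17.4) in mutant. A single cell of 132228 UMIs held 360 of the 737 Car3 UMIs of the 12–16-month control library, and without the cell with most Car3 in each library the 4 ratios were 0.0328 (0.0162–0.0596), 0.362 (0.304–0.43), 1.58 (1.35–1.85) and 17.4 (9.54–35.4). Cells with at least 100 Col1a1 UMIs, a limit chosen after the values were seen, numbered 13, 2, 12 and 9. They held 96.3% of the Car3 UMIs of the class, at a median depth of 30881.5 UMIs against 10471.5 below the limit. Within them Car3 was found in 9 of 13, 2 of 2, 11 of 12 and 9 of 9 cells, at 832, 467, 1517 and 1218 CPM. The mutant to control ratio within these cells was 0.562 (0.318–0.924) at 3 months, where it rests on 2 mutant cells, and 0.803 (0.70–0.919) at 12–16 months. Both mutant to control ratios lay much nearer to 1 than those of the whole class. The 12–16-month to 3-month ratio within these cells was 1.82 (1.61–2.07) in control and 2.61 (1.58–4.62) in mutant. In control it was thus close to the 2.02 of the whole class. In mutant it was nearer to 1 than the 11.1 of the whole class, but rests on the same 2 cells of the 3-month library, with 16 Car3 UMIs. In the 3-month mutant library 23 of the 39 bone/stroma cells held Ptprc and added UMIs to the total but only 4 UMIs of Car3, and without cells with Ptprc the Car3 level was 502, 111, 1152 and 349 CPM. Of tissues known to be rich in Car3, the 5 skeletal muscle genes of the marker list summed to between 0 and 5.49 CPM in bone/stroma cells, with 3 of them at 0, and the 3 adipocyte genes to between 61.5 and 411 CPM. Nearly all of the latter was Adipoq (adiponectin), which is also on the list of skeletal stem and progenitor genes, while Plin1 had 1 UMI and Cidec 0. Their part in the Car3 level was not tested. With the barcodes that failed the filter included, the level in the 12–16-month mutant library was 398 CPM, and in the other 3 it stayed within the counting interval.

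**Figure D5:**
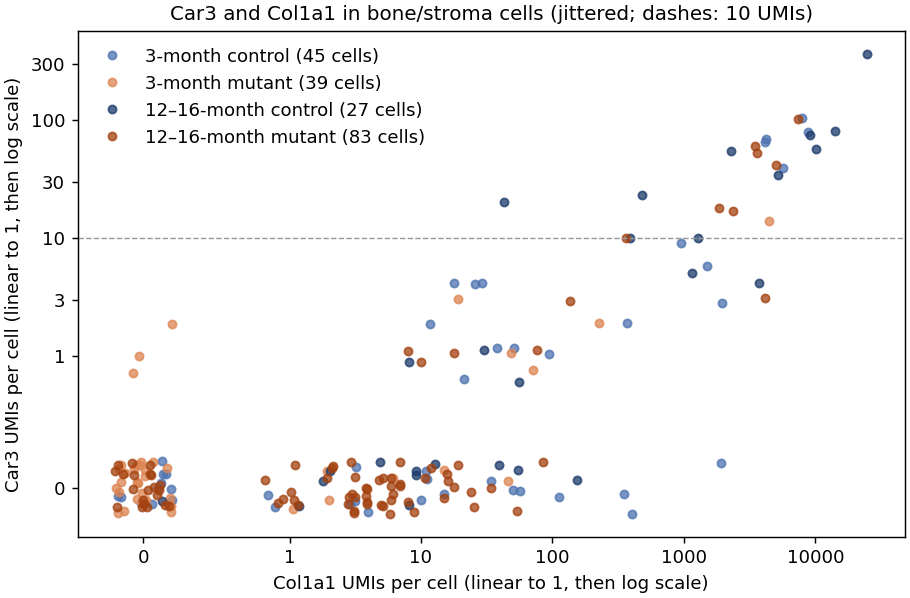
Car3 UMIs (y axis) against Col1a1 UMIs (x axis) in each of the 194 bone/stroma cells, linear from 0 to 1 and logarithmic above, with points jittered and colored by library and a dashed line at 10 Car3 UMIs. The 23 cells at or above the line have between 43 and 24720 Col1a1 UMIs, and the 3-month mutant library has 1 of them.

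Other notochord genes were found without T. Of a list of 6, Noto and Shh had no UMI in chondrocytes. Foxa2, a forkhead factor of notochord and floor plate that is also expressed in maturing growth plate chondrocytes, was found in 46, 91, 2 and 38 chondrocytes, at 11.5, 64, 2.29 and 22.7 CPM. It was highest in the 3-month mutant library, the library with the largest share of chondrocytes with Runx2, and 90.1% of its chondrocytes with Foxa2 held Runx2 as well, against 38.8% of those without. In a split chosen after the values were seen, Cd24a stood at 315, 134, 395 and 193 CPM in chondrocytes with Foxa2 and at 504, 317, 342 and 354 CPM in those without. Lgals3 stood at 1187, 505, 1213 and 713 CPM with Foxa2 and at 1601, 893, 1082 and 1253 CPM without. Both genes were lower with Foxa2 in 3 libraries and higher in the 12–16-month control, where 2 cells held Foxa2. The median depth was 19063 UMIs in cells with Foxa2 and 11587 in those without. Chrd (chordin), a secreted BMP antagonist, was found in 103, 27, 10 and 33 chondrocytes at 16.1, 5.3, 8.41 and 12.6 CPM. Foxa1 (15, 3, 0 and 0 UMIs) and Foxj1 (14, 8, 0 and 3) were near the limit of detection. Foxa2 and Chrd were at least 2-fold higher in chondrocytes than in bone/stroma cells in the 3 libraries where they reached 20 UMIs, as were 22.2% (3-month control), 21.1% (3-month mutant) and 14.4% (12–16-month mutant) of all genes tested.

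The nucleus pulposus list held genes found in most chondrocytes and genes found in few. Pax1, a transcription factor of the sclerotome and the disc, was found in 465, 316, 73 and 196 chondrocytes at 216, 227, 274 and 241 CPM, and Hif1a, the hypoxia factor, in 489, 301, 74 and 206 at 268, 208, 287 and 338 CPM. Slc2a1 stood at 144, 119.9, 121 and 109 CPM and Foxf1, a forkhead factor, at 68.5, 36.4, 68.8 and 45.8. These 4 genes varied less between the libraries than Car12, a membrane-bound carbonic anhydrase, which stood at 11.1, 13.7, 23.7 and 71.3 CPM in 29, 43, 11 and 43 cells, or than Tnfaip6, a hyaluronan-binding protein, at 60, 29.1, 94 and 46.8 CPM. In bone/stroma cells Pax1 was at 15.2, 1.16, 6.86 and 27.9 CPM. Of the 10 genes of this list, 9, 8, 9 and 10 reached 20 UMIs over both classes, and 5, 5, 5 and 6 of them were at least 2-fold higher in chondrocytes, beside 22.2%, 21.1%, 20.0% and 14.4% of all genes. The other way, 4, 3, 4 and 3 were at least 2-fold lower, beside 14.9%, 24.4%, 13.2% and 18.2% of all genes.

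Genes of the outer ring of the disc and of tendon were also present. Scx and Mkx, transcription factors of tendon and annulus, stood at 23.8, 7.01, 16.8 and 13.6 CPM and 49.8, 51.3, 68.8 and 40.9 CPM in chondrocytes. Fmod (fibromodulin), a small proteoglycan that binds collagen, was at 251, 293, 522 and 603 CPM, against 1.27, 2.32, 2.74 and 2.06 in bone/stroma cells. Thbs2 and Thbs4, matrix glycoproteins, were at 23.6, 26.9, 13.8 and 35.3 and 6.54, 3.08, 9.17 and 13.3 CPM. Col1a2 was at 271, 126, 255 and 148 CPM and Col1a1 at 52.9, 1.71, 195 and 12.6, a small part of their level in bone/stroma cells (49203, 5674, 100230 and 29824 CPM for Col1a1). The libraries ranked the same way by Col1a1 in both classes. Free RNA can add stray UMIs and was not removed here, and its part in these levels was not tested. In the 3-month comparison of mutant with control chondrocytes, 7 of the 8 genes of this list reached 20 UMIs, 4 of these were at least 2-fold lower in the mutant library and none higher, with a median log2 ratio of -1.06 beside 0.08 over all genes tested, of which 17.6% passed 2-fold in either direction. At 12–16 months 1 of the 7 was higher in the mutant library and 1 lower, with a median log2 ratio of -0.32 (8.15% of all genes passed). From 3 to 12–16 months, 2 of 7 were higher and 0 lower in control (median 0.47, 12.6% of all genes), and 3 of 7 higher and 0 lower in mutant (median 0.96, 11.5%).

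Among the families of the 7 genes, galectins and carbonic anhydrases lay on both sides of the class comparison. Of 5, 6, 4 and 5 galectins with at least 20 UMIs, 1 in each library was at least 2-fold higher in chondrocytes and 1, 3, 1 and 4 lower. Of 7, 7, 5 and 6 carbonic anhydrases, 3, 4, 2 and 4 were higher and 3, 3, 3 and 2 lower. Over all genes, 22.2%, 21.1%, 20.0% and 14.4% were higher and 14.9%, 24.4%, 13.2% and 18.2% lower. Lgals1, galectin-1, was at 149, 40.7, 91 and 83.1 CPM in chondrocytes and at 948, 345, 643 and 539 CPM in bone/stroma cells, the reverse of Lgals3 in all 4 libraries. Lgals3bp, a secreted partner of Lgals3, was at 45.4, 24.1, 45.1 and 41.9 CPM in chondrocytes, and Lgals8 at 22.4, 29.3, 30.6 and 19.6. Lgals4 had 19, 29, 8 and 6 UMIs. Of the carbonic anhydrases, Car5b, a mitochondrial form, was at 55.3, 23.1, 29.8 and 31.4 CPM in chondrocytes and at 3.8, 4.64, 5.49 and 2.06 in bone/stroma cells, again the reverse of Car3. Car9, a surface enzyme induced by hypoxia, was at 14.6, 14.7, 15.3 and 12.9 CPM in chondrocytes, Car8 at 12.5, 16.1, 11.5 and 18.5 and Car11 at 5.81, 4.11, 3.82 and 2.45. Of the 53 keratins listed, 21 had a UMI in chondrocytes and 3 had at least 50. Krt10 was at 23.5, 20.4, 25.2 and 33.9 CPM, in 153, 92, 23 and 76 cells. Krt16 (309, 35, 10 and 23 UMIs in 61, 8, 3 and 10 cells) and Krt17 (115, 9, 6 and 14 UMIs in 36, 6, 5 and 7 cells), keratins of stressed and proliferating skin, were highest in the 3-month control library. None of the 8 genes of an epithelial list reached 50 UMIs, and 4 had no UMI in chondrocytes.

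The genes whose levels followed a member most closely were ranked by Pearson correlation of log2(CPM + 10) over 16 sums (4 libraries by chondrocytes with Runx2, chondrocytes without, bone/stroma cells and all other passing cells) among 6590 genes with at least 500 UMIs. For Cd24a they were Med28, a Mediator subunit (r = 0.95), Stk38l, a kinase (0.94), and Fry, a scaffold of such kinases (0.94). For Lgals3 they were Pde4b, a cyclic AMP phosphodiesterase (0.96), Scin, the actin-severing scinderin (0.95), and Ramp2, a receptor activity-modifying protein (0.95). For Car3 the leading genes were Ifitm5, a gene of mineralizing osteoblasts (0.89), and Lox, the collagen crosslinking enzyme (0.89). The 16 sums share libraries and depth, and these correlations are descriptions. The other 4 genes had too few UMIs to be ranked.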

How the data were processed

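Libraries were made by the authors from sorted tdTom+ spine cells with 10x 3′ chemistry, 1 for each of the 4 groups, and the groups were taken from the labels. Cell Ranger (8.0.0 per the file headers) was run by the authors on mm10, and the UMI count of each gene in each barcode was deposited. The counts were whole numbers of called cells, not normalized, and the barcodes were not filtered further. SoupX, used in the study against free RNA, was not run here, so free RNA can add stray UMIs, and doublets were called with Scrublet (expected rate 6%) but kept. The study's filter was used (UMIs above 750, genes above 500, a mitochondrial share under 7%). Passing cells held 2154537 to 9429264 UMIs per library.

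The members, the lists and the rule for named genes (the 7 members, every notochord list gene, list genes with at least 50 UMIs in chondrocytes, and the 3 genes most like each member with at least 500 UMIs) were chosen with earlier results of these data known. For Car3, 1 of these 3 genes is not reported here. UMIs were summed over a class per library and given per 1000000 UMIs of the class (CPM), with exact 95% Poisson intervals. Shares have Clopper-Pearson intervals and ratios conditional binomial intervals. Where a sum was 0, 3 counts stood for 0 in the ratio and only the lower end of its interval is given. Pairs of counts that were both at most 3 got no fold. Thinned shares are the expected shares of cells with a UMI at 3000 UMIs per cell. Python 3.11.15, numpy 2.4.6, scipy 1.17.1, pandas 2.3.3, scanpy 1.11.5 and, for TMM factors, edgeR 4.0.16 in R 4.3.3 were used, and the scripts were tested on simulated data. Gene positions are from the GRCm38 annotation, which held 99.6% of the 32286 gene identifiers. Stretches of 31 bases from the last 500 bases of each member were not shared with another listed gene for Cd24a, Lgals3, Krt8, Krt18 and T, and 0.579% were for Krt19 and 0.861% for Car3. Alternatives covered the filter, the class rules, doublets, cells with Ptprc, depth, scaling, cell weights and the single cell with T and the keratins.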

Additional observations from a re-analysis of the deposited data

Results flagged for a closer look

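The change with age in chondrocytes went in opposite directions in the control and the mutant libraries. The 12–16-month to 3-month ratio of Cd24a was 0.715 in control and 1.25 in mutant, and that of Lgals3 was 0.70 in control and 1.49 in mutant. With 1 library for each condition the difference was not tested, and it rests on the 3-month libraries being the highest and the lowest. Among chondrocytes without Runx2 the Cd24a ratio in mutant was 0.952 (0.862–1.05), while the Lgals3 ratio was 1.28 (1.21–1.35). Among those with Runx2 the ratios in mutant were 1.39 (1.19–1.62) for Cd24a and 1.32 (1.21–1.43) for Lgals3.

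The 415 barcodes that did not pass the filter held 70 Cd24a UMIs in 48 barcodes, 65 Lgals3 UMIs in 37 and 306 Car3 UMIs in 56. All 56 barcodes with Car3 had at least 7% mitochondrial UMIs (median 23.4%), all held Col1a1, with 16806 Col1a1 UMIs together, and none held Acan, Plin1 or the muscle genes Ckm and Acta1. By library the failed barcodes held 101, 4, 42 and 159 Car3 UMIs. With all deposited barcodes in place of the passing ones, the Car3 level of bone/stroma cells was 495.1, 31.8, 1006 and 398 CPM, against 500.4, 29.0, 1011 and 321.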

How the results depend on the processing

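Over 531 recomputed values, 446 stayed within the counting interval of the reported value (or within 1.5 times for counts and shares of all genes), 84 moved beyond it and 1 was counted as reversed. The count of cells with T and a keratin was 1 under every alternative run for it. Other filters on cells, Acan and Sox9 limits, doublets left out and cells with Ptprc left out moved none of the library ratios of Cd24a and Lgals3 in chondrocytes. The Runx2 split moved most of them. Among chondrocytes without Runx2 the log2 ratio of Cd24a from 3 to 12–16 months in mutant reversed to -0.07 from 0.33, and the other Cd24a values were -0.18 (mutant to control, 3 months) and -0.28 (age, control), with -0.31 (mutant to control, 12–16 months), -0.17 and 0.48 (age, control and mutant) among those with Runx2. The Lgals3 values without Runx2 were -0.43, 0.26, -0.33 and 0.36, in the order of mutant to control at 3 and at 12–16 months and age in control and mutant, and with Runx2 -0.97, -0.28, -0.29 and 0.40. With TMM factors the log2 ratio at 3 months was -1.01 for Cd24a and -1.12 for Lgals3, and the age ratio of Lgals3 in control -0.61. Weighting every cell equally gave -0.91 for Lgals3 at 3 months. Without the cell with T and all 3 keratins the age ratio of Lgals3 in mutant was 0.50 and the Car3 ratio of chondrocytes to bone/stroma cells in the 12–16-month mutant -8.25. Without cells with Ptprc the log2 ratio of chondrocytes to bone/stroma cells was 4.01, 6.78 and 5.15 for Cd24a (3-month mutant, 12–16-month control and mutant) and 5.58 and 6.98 for Lgals3 (both mutant libraries). For Krt18 in the 12–16-month mutant it changed sign, from -1.03 to 2.02, and is counted among the 84 values that moved. The last 2 alternatives were chosen after seeing the data, as was leaving out the cell with most Car3. The share of chondrocytes with both Cd24a and Lgals3 became 65.65%, 38.02%, 54.38% and 48.62% at 3000 UMIs per cell, and 92.96% in the 12–16-month control with at least 10 Acan UMIs. The share of all genes past the fold, with no minimum of UMIs, was 38.9%, 34.3%, 31% and 26.5% between the classes and 37.4%, 34.7%, 40.1% and 36.6% between libraries (mutant to control at 3 and 12–16 months, age in control and mutant), and at 1.5-fold 30.4% between the classes in the 12–16-month control and 39.1%, 22.7%, 29.5% and 28.5% between libraries. The share lower in chondrocytes became 24.1%, 21.8% and 30.9% at 1.5-fold (3-month control, 12–16-month control and mutant) and 21.2% with no minimum in the 12–16-month control. Of the 3 genes most like a member, 0, 1 and 1 were the same with log2(CPM + 1) for Cd24a, Lgals3 and Car3, and 3, 3 and 0 with a minimum of 100 UMIs. No paired analysis was possible because each group has 1 library, and for the same reason no replicate could be left out. The small classes limit the precision, with 27 bone/stroma cells in the 12–16-month control and 39 in the 3-month mutant library.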
